A study of Mus musculus with 4 samples.

Results

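The core spliceosome and the heterogeneous nuclear ribonucleoproteins (hnRNPs) were examined as 64 protein-coding genes of the 53715 genes in the deposited tables. Members were the protein-coding rows whose symbol begins with Hnrnp (20 genes), Snrp (12), Snrnp (7), Sf3a (3), Sf3b (6), Prpf (13) or U2af (3). The rule itself uses no measured value, but it was chosen with earlier results of these data known. RNA was sequenced from sorted CD4+CD8+ double-positive (DP) thymocytes of C57BL/6 mice aged 6 to 8 weeks. The wild-type (WT) group had 2 libraries, and the knockout (KO) group had 2 libraries from mice of genotype LCKCre/+ Srsf1fl/fl, in which Cre under the Lck promoter of early thymocytes acts on a floxed Srsf1 gene. The labels do not say whether the WT mice carried Cre, or whether replicates came from separate animals, so p-values measure only the spread between these libraries, which may be technical.

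The spliceosome removes introns from pre-mRNA and is built from small nuclear ribonucleoproteins (snRNPs), each a small nuclear RNA wrapped in a ring of Sm or Lsm proteins with particle-specific subunits. U1 binds the 5′ splice site, U2 with SF3a, SF3b and U2AF defines the branch point and 3′ splice site, and the U4/U6.U5 tri-snRNP then joins and is rearranged into the catalytic machine with the Prp19 complex. SR proteins such as SRSF1, the product of the deleted gene, recruit U1 and U2AF to exons, and hnRNPs often act against them, as in thymocytes and T cells where hnRNP L and hnRNP LL promote skipping of variable exons of the CD45 gene.

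Levels are given as RPKM, reads scaled by the deposited gene length and by the library total, and changes as the log2 fold change of KO against WT from the counts. Because RPKM depends on that length and on sequence shared with other genes, levels of different genes compare only roughly. A gene was called when its Benjamini-Hochberg adjusted p over all 16588 genes tested was under 0.05 in the edgeR quasi-likelihood test. Libraries held 35862730 to 37033180 counts, and 56 of the 62 tested members had at least 1000 counts in every library. Srsf1 itself stood at 23.5 and 21.5 RPKM in the WT libraries and 8.70 and 8.53 RPKM in the KO libraries (log2 fold change -1.39 with SE 0.09, adjusted p = 2.91e-06). The 7 DP markers examined, among them Cd4, Cd8a and Rag1, were detected in every library, and their summed level was 7182 to 7438 CPM (counts scaled by the library total alone) in WT and 10380 to 10800 CPM in KO, with 5 of the 7 called higher. The part of this marker difference in the results below was not tested. Markers of other cell types were low: the summed B cell list reached 4.73 CPM, the erythroid list 5.20, the thymic epithelial list 15.4 (Krt5 and Foxn1 at 0) and the myeloid list 22.0, and WT and KO libraries overlapped in each of these lists. The NK and gamma-delta list summed to 39.5 and 45.2 CPM in WT and 60.7 and 53.5 CPM in KO, carried by Trdc, with Ncr1 at 0. In the same list Sox13 had 4.57 and 4.38 CPM in WT and 2.27 and 2.09 CPM in KO, and Nkg7 3.35 and 1.48 CPM in WT and 1.35 and 1.26 CPM in KO. In the endothelial and stromal list Pecam1 had 123 and 136 CPM in WT and 119.5 and 116 CPM in KO, and Cdh5 at most 0.11 CPM. Their part in the results was not tested. In bulk RNA, fewer cells of a type and less RNA per cell cannot be told apart.

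Changes among the members were small, and calls went in both directions. Of 62 tested members, 8 rose in KO, 5 fell and 49 were not called. In all genes tested 6.63% were called higher and 7.89% lower, against 12.9% and 8.06% of the members. Members were counted deeply, and calls were more frequent among deeply counted genes: among the 6167 tested genes with a mean of at least 1000 counts 14.2% were called higher and 15.1% lower, against 14.0% and 8.77% of the 57 members at that depth. At this cut, the share of members called higher was near that of all genes above it, and the share called lower, from 5 calls, was smaller. The cut does not match depth: median levels above it were 38.8 RPKM for the members and 17.7 RPKM for all genes. Members called lower numbered 8 by DESeq2 and 9 by limma-voom, and the shares of all genes called by these tools are not given here. The median log2 fold change was 0.13 over the members and 0.00 over all genes tested, and 42 members lay above 0 against 20 below. Both KO libraries stood above both WT libraries in 30 members (48.4%, against 27.8% of all genes tested) and below both in 11 (17.7%, against 28.1%). At a mean of at least 1000 counts these shares were 50.9% and 19.3% of the members, against 37.6% and 32.7% of the genes of that depth.

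**Figure D1:**
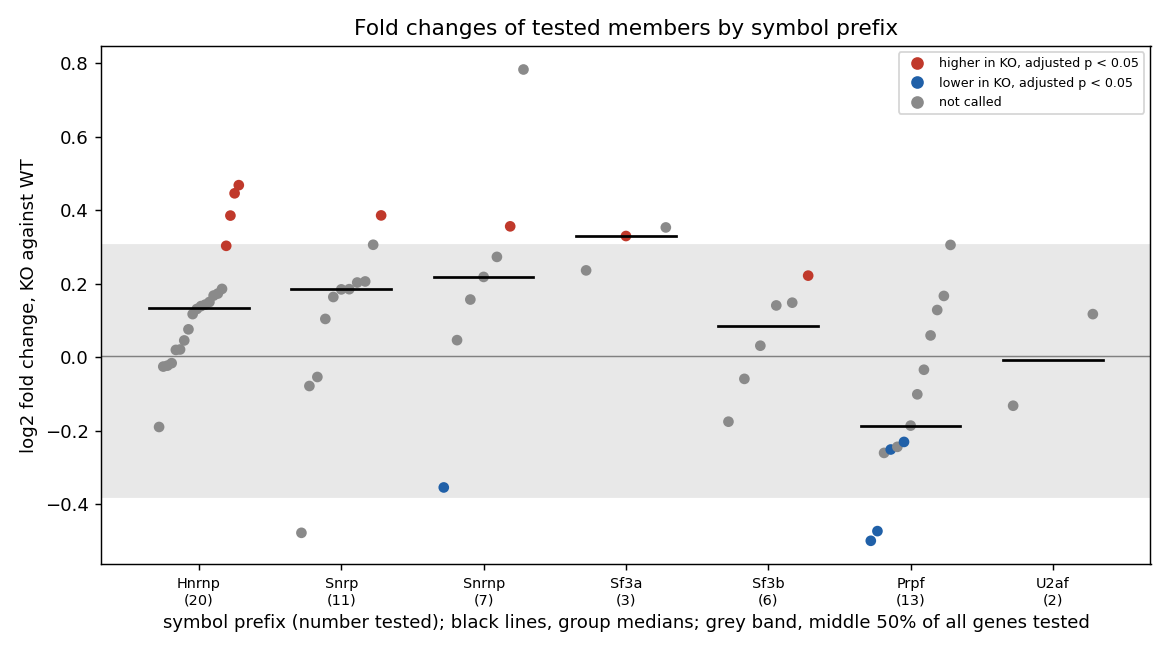
Log2 fold change of KO against WT (vertical axis) for the 62 tested members, grouped by symbol prefix (horizontal axis, number tested in brackets). Each point is a gene, coloured by its edgeR call, black lines are group medians, and the grey band spans the middle 50% of all genes tested. The Prpf group has its median at -0.19 and holds 4 of the 5 calls lower in KO, while the Hnrnp group has its median at 0.14 and holds 4 of the 8 calls higher.

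Calls were counted by prefix. Among the Hnrnp genes 4 rose (20%) and 16 were not called, and among the Prpf genes 4 fell (30.8%) and 9 were not called. Of all genes tested 6.63% were called higher and 7.89% lower. Of genes with a mean of at least 1000 counts 14.2% were called higher and 15.15% lower. The single Snrnp gene that fell, Snrnp200, encodes a partner of Prpf8 in U5, and the single Snrnp gene that rose, Snrnp48, belongs to the minor spliceosome. Median log2 fold changes were 0.33 for Sf3a, 0.22 for Snrnp, 0.18 for Snrp, 0.14 for Hnrnp, 0.09 for Sf3b, -0.01 for U2af and -0.19 for Prpf. No difference between prefixes was tested. Leaving out WT replicate 2 gave a Snrnp median of 0.10, WT replicate 1 one of 0.32 and KO replicate 2 one of 0.33. The Sf3b median was 0.02 when WT replicate 1 was left out, the Hnrnp median 0.09 when WT replicate 2 was, and the U2af median -0.17 when KO replicate 1 was. Of the 13 called members, 5 (Hnrnpm, Hnrnpf, Prpf18, Hnrnpr and Sf3a1) kept the call without each library in turn, and 8 lost it without at least 1 library, as given beside each. Without 1 library the members called higher numbered 5 (WT replicate 1 or KO replicate 1 left out) to 10, and those called lower 2 (without WT replicate 1) or 3 (without WT replicate 2 or KO replicate 2) to 6. By limma on log2 of the deposited RPKM plus 0.5, only Hnrnpm and Hnrnpf were still called, and the other 11 had adjusted p from 0.0548 to 0.12.

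The starts of 4 called members are shown because the pairs moved in opposite directions: Hnrnpm and Sf3a1 rose and Snrnp200 and Prpf38a fell. They are those with the smallest adjusted p in each direction among called members with a single promoter window in the RefSeq table (GRCm38.p6), which covers 250 bases before to 50 after the start. Windows were searched on both strands for CCGGAAGT (ETS factors), AAGATGGC (YY1), the NRF1 motif, TGACGTCA (CRE), CACGTG (E-box), CCAAT and TATAAA, and capitals mark each match. Positions are chr17:33685409-33685708 on the minus strand for Hnrnpm, chr11:4160104-4160403 on the plus strand for Sf3a1, chr2:127208136-127208435 on the plus strand for Snrnp200 and chr4:108579287-108579586 on the minus strand for Prpf38a.
Hnrnpm: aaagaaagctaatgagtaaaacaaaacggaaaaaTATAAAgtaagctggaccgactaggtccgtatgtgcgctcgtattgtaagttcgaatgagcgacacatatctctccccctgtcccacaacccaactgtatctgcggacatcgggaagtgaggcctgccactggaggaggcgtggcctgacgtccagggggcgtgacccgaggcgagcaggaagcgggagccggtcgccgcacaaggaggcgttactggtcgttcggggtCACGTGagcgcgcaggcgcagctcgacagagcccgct
Sf3a1: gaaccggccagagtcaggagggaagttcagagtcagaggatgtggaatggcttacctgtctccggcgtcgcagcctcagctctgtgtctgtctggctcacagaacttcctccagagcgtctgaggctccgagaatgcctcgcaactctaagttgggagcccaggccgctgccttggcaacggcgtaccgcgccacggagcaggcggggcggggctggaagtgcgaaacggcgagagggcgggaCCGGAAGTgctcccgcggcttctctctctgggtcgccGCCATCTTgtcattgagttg
Snrnp200: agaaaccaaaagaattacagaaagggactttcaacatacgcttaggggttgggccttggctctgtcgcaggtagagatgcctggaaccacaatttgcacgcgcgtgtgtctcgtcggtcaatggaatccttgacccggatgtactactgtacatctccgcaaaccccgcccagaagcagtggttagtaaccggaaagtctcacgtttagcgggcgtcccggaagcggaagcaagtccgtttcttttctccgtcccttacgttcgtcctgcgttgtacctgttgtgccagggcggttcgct
Prpf38a: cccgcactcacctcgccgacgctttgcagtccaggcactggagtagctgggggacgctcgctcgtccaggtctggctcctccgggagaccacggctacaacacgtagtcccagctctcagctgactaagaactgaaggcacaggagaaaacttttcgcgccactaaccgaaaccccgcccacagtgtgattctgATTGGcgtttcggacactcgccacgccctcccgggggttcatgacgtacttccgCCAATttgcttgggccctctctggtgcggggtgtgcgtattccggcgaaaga
The Hnrnpm window held TATAAA and an E-box, the Sf3a1 window an ETS and a reversed YY1 match, and the Prpf38a window CCAAT on both strands. The Snrnp200 window held none of these letters.

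Windows were found for 52 of the 62 tested members. The ETS letters stood in 14.9% of the members' windows and 7.89% of all windows of tested protein-coding genes, CCAAT in 50.7% and 37.6%, and the E-box in 16.4% and 9.66%. TATAAA stood in 7.46% and 6.85%, YY1 in 4.48% and 4.32%, NRF1 in 1.49% and 2.08%, and CRE in 2.99% and 3.11%. The 9 members holding the ETS letters were 3 that rose (Hnrnpf, Sf3a1 and Sf3b2), 1 that fell (Prpf4b) and 5 not called (Hnrnpd, Prpf6, Sf3a3, Snrnp27 and Snrpe). These matches describe letters in a window and were not tested.

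The hnRNP genes had the highest median level of the prefixes, 115.4 RPKM against 26.0 RPKM over all members. By edgeR 4 of the 20 rose, while DESeq2 called 4 higher and 1 lower and limma-voom 5 higher and 1 lower. Hnrnpa0, an A/B-type hnRNP and the member with the highest level, had 543 and 469.6 RPKM in WT and 497 and 568 RPKM in KO. Its groups overlapped (log2 fold change 0.08 with SE 0.08, adjusted p = 0.652), and the sign turned without WT replicate 2 or KO replicate 2 (-0.02 and -0.03). Summed over the 20 genes, the hnRNPs held 2487 and 2414 RPKM in WT and 2686 and 2662 RPKM in KO. Of the 20, 12 (60%) stood higher in both KO libraries than in both WT libraries, against 27.8% of all genes tested. Among genes with a mean of at least 1000 counts this share was 37.6%.

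Hnrnpm (chromosome 17, 33646233 to 33686860), which encodes a regulator of alternative splicing, had 119 and 122 RPKM in WT and 166 and 161 RPKM in KO. The groups were far apart against their spread, at 120.2 ± 2.05 and 164 ± 4.11 RPKM (SD, n = 2 each), and the log2 fold change was 0.45 (SE 0.06, adjusted p = 0.000655). In GENCODE M21, which holds a different version of this gene from the deposited one, 14.7% of the exon bases of Hnrnpm also belong to March2 on the same strand. Sharing in the deposited version was not examined. Hnrnpf (chromosome 6, 117900324 to 117925622), whose product binds runs of G in RNA, had 111.5 and 112 RPKM in WT and 165 and 144 RPKM in KO, with a log2 change of 0.47 (SE 0.08, adjusted p = 0.00148). For Hnrnpf 61.9% of the 50-base stretches of its transcripts also occur, on either strand, in transcripts of other annotated genes, so its count is uncertain. Of the exon bases of Hnrnpf 26.5% lie in genes on the opposite strand.

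The paralogues of Hnrnpf were not called by edgeR, although Hnrnph1 was called lower by DESeq2 and limma-voom. By limma on log2 RPKM Hnrnph1 was not called. Hnrnph1, the abundant member of the F/H group, had 185 and 185 RPKM in WT and 162 and 162 RPKM in KO, so the libraries within each group were nearly equal and the groups did not overlap. Its log2 fold change was -0.19 (SE 0.06), and it did not pass the edgeR test (adjusted p = 0.0525). It did pass by DESeq2 (0.0105), by limma-voom (0.0106), with library size only (0.0465) and with a filter of a mean of 1 CPM (0.029). Hnrnph2 was at 22.2 ± 0.535 and 21.8 ± 1.62 RPKM.

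Hnrnpa2b1, an A/B-type hnRNP that also acts in RNA transport, had 200.3 and 186 RPKM in WT and 233 and 243 RPKM in KO. It rose by 0.30 log2 units (SE 0.06, adjusted p = 0.00755), but was no longer called when WT replicate 2 (0.0919) was left out. Hnrnpr, a relative of the mRNA-binding protein SYNCRIP, had 7.12 and 7.52 RPKM in WT and 10.3 and 8.83 RPKM in KO (log2 fold change 0.39 with SE 0.09, adjusted p = 0.0103). Hnrnpa1, the classical antagonist of SRSF1 in 5′ splice site choice, had 227 and 247 RPKM in WT and 282 and 256 RPKM in KO. Both KO libraries were higher, but the log2 fold change of 0.19 (SE 0.07) did not pass the test (adjusted p = 0.101), except by limma-voom (0.0392) and without KO replicate 2 (0.0136). Of its 50-base stretches 28.2% occur in other genes.

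The pair that acts on CD45 exons differed little between genotypes. Hnrnpll, which is induced when lymphocytes are activated, had 13.5 and 13.7 RPKM in WT and 15.8 and 14.9 RPKM in KO. Both KO libraries were higher, but the log2 fold change of 0.17 (SE 0.08) did not pass the test (adjusted p = 0.169). Its paralogue Hnrnpl had 95.2, 92.9, 94.7 and 95.7 RPKM in the WT and then the KO libraries, with overlapping groups. In the other pairs of hnRNP relatives, Hnrnpul1 and Hnrnpul2 had log2 fold changes of 0.12 and 0.14, and Hnrnpd and Hnrnpdl 0.15 and -0.02, with none of these called. The 16 hnRNP genes not called lay between -0.19 and 0.19.

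**Figure D2:**
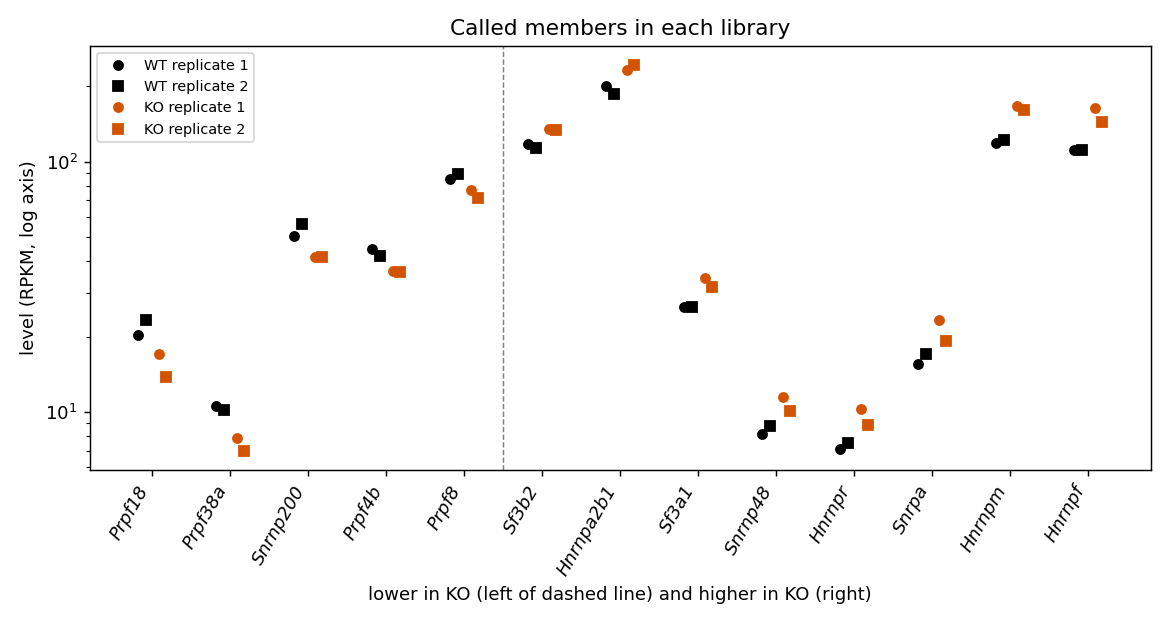
Level in RPKM (log axis) of the 13 called members in each library, WT in black and KO in orange, circles for replicate 1 and squares for replicate 2. Genes left of the dashed line were lower in KO and those right of it higher, and in each the 2 KO points lie on one side of the 2 WT points.

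The Sm ring, the protein core shared by U1, U2, U4 and U5, gave no call among its 7 tested genes by edgeR, DESeq2 or limma-voom, with 2 genes at an unadjusted edgeR p under 0.05. Among them Snrpd3 was called higher with the replicate block (0.0446) and when WT replicate 2 was left out (0.00409). Its most abundant member, Snrpb, had 105 and 103 RPKM in WT and 121 and 116 RPKM in KO, with groups that did not overlap (log2 fold change 0.18 with SE 0.07, adjusted p = 0.124). Snrpd1 had 57.5 and 51.3 RPKM in WT and 52.4 and 50.5 RPKM in KO, with overlapping groups (log2 fold change -0.08 with SE 0.12, adjusted p = 0.773, and 0.01 without WT replicate 1). Although the ring holds its proteins in equal number, the RPKM of its genes ranged widely: Snrpf had 20 and 15 counts in WT and 10 and 24 in KO, at most 0.77 RPKM. Of the exon bases of Snrpf 85.4% lie in other genes, chiefly Ccdc38 on the opposite strand, and whether this lowers its count was not tested. Snrpn, the imprinted paralogue of Snrpb used mainly in brain, had 2 and 10 counts in WT and 4 and 0 in KO and was not tested. The count of 0 allows up to 3 counts, or 0.0382 RPKM, for counting error only.

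Among the proteins of the U1 snRNP, which reads the 5′ splice site, 1 of 6 genes was called. Snrpa, which encodes the A protein of U1, had 15.5 and 17.1 RPKM in WT and 23.3 and 19.3 RPKM in KO. It rose by 0.39 log2 units (SE 0.12, adjusted p = 0.049), but it was not called with WT replicate 1 (0.184) or KO replicate 1 (0.283) left out, with library size only (0.0543), with DESeq2 size factors (0.0505) and by DESeq2 (0.0575). Of the exon bases of Snrpa 11.0% are shared with a gene on the opposite strand. Snrnp70, which encodes U1-70K, the protein that contacts SR proteins, had 114 and 112 RPKM in WT and 124 and 128 RPKM in KO. Both KO libraries were higher by a small amount (log2 fold change 0.16 with SE 0.06, adjusted p = 0.124, with 0.0442 by limma-voom and 0.0449 with a length correction). No other U1 gene was called by edgeR.

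Of the 13 tested U2 snRNP and U2AF genes, Sf3a1 and Sf3b2 rose and 11 were not called by edgeR, while limma-voom called 2 of the 13 lower. Sf3a1, a subunit of the SF3a complex that completes the U2 particle, had 26.2 and 26.2 RPKM in WT and 34.3 and 31.6 RPKM in KO, a log2 change of 0.33 (SE 0.08, adjusted p = 0.0137). The other SF3a genes stood higher in both KO libraries too but did not pass the test. Sf3a2 had 35.2 and 36.1 RPKM in WT and 41.4 and 42.5 RPKM in KO (0.24, SE 0.08, adjusted p = 0.0837), and 16.1% of its exon bases are shared with Plekhj1. Sf3a3 had 21.4 and 21.6 RPKM in WT and 31.9 and 23.1 RPKM in KO, so its KO libraries lay far apart (0.35, SE 0.13, adjusted p = 0.099). Sf3a3 was called higher with no filter on low counts (0.0153), with the replicate block (0.0303) and when KO replicate 2 was left out (0.000353).

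In SF3b, the complex that holds the branch point adenosine, Sf3b2 had 117 and 114 RPKM in WT and 136 and 134 RPKM in KO. It rose by 0.22 log2 units (SE 0.07, adjusted p = 0.0475), and it was not called with WT replicate 1 (0.137), WT replicate 2 (0.263) or KO replicate 1 (0.0564) left out and with the replicate block (0.0825). Sf3b1, the scaffold of SF3b, lay on the other side, with 106 and 114 RPKM in WT and 100 and 94.6 RPKM in KO. It did not pass the test (log2 fold change -0.18 with SE 0.06, adjusted p = 0.0815), but did by DESeq2 (0.0332), limma-voom (0.0204) and with a filter of a mean of 1 CPM (0.0448). Snrpa1, which encodes a U2-specific protein and was picked after its values were seen, had 12.6 and 10.4 RPKM in WT and 8.92 and 7.59 RPKM in KO (-0.48, SE 0.16, adjusted p = 0.0653). It was called lower by limma-voom (0.0495), with no filter on low counts (0.0273), with a filter of a mean of 1 CPM (0.0368) and with the replicate block (0.0456), and when WT replicate 2 (0.0221) or KO replicate 1 (0.0392) was left out.

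The U2AF pair, which recognises the 3′ splice site, was abundant and did not pass the test, and neither tested gene had an unadjusted p under 0.05 or was called by DESeq2 or limma-voom. U2af1, the small subunit that reads the AG, had 154 and 172 RPKM in WT and 154 and 143 RPKM in KO, with overlapping groups (log2 fold change -0.13 with SE 0.09, adjusted p = 0.362). U2af2, the large subunit that binds the polypyrimidine tract, had 88.2 and 91.1 RPKM in WT and 97.5 and 96.6 RPKM in KO (0.12, SE 0.07, adjusted p = 0.305). U2af1l4, a paralogue of U2af1, had 4 to 12 counts and was not tested.

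The genes grouped as U4/U6 and tri-snRNP, which include factors that act on these particles, gave 4 of the 5 decreases among the members. Of 11 tested, 4 fell (36.4%) and 7 were not called. The calls of these 4 depended on single libraries, as given with each gene. Among the other genes of the pathway, described below, the 8 tri-snRNP genes gave no call by edgeR. Their median log2 fold change was 0.06. Of all genes tested 7.89% were called lower, and of genes with a mean of at least 1000 counts 15.15%. The summed level of the 11 genes was 330.0 and 329.5 RPKM in WT and 301.7 and 294.2 RPKM in KO. This sum includes the 4 called genes and so repeats their decrease. Of the 11 log2 fold changes, 7 lay below 0 and 4 above. Snrnp200 (chromosome 2, 127208386 to 127240451), the helicase that unwinds U4 from U6, had 50.3 and 56.2 RPKM in WT and 41.5 and 41.6 RPKM in KO. Both KO libraries were lower and close to each other. The log2 fold change was -0.35 (SE 0.07, adjusted p = 0.00742), and it was not called with WT replicate 2 (0.0891) left out.

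Prpf8, the largest spliceosome protein and the scaffold of its active site, had 85.3 and 89.1 RPKM in WT and 76.9 and 71.5 RPKM in KO (log2 fold change -0.23 with SE 0.07, adjusted p = 0.0373). This small change no longer passed with WT replicate 1 (0.0927), with WT replicate 2 (0.261) or with KO replicate 2 (0.113) left out and with a correction for gene length (0.0804). Prpf4b, a kinase that phosphorylates tri-snRNP proteins before catalysis, had 44.8 and 42.1 RPKM in WT and 36.5 and 36.4 RPKM in KO (-0.25, SE 0.07, adjusted p = 0.0351). It was not called with WT replicate 1 (0.297), with WT replicate 2 (0.0559) or with KO replicate 1 (0.0594) left out and with the length correction (0.085).

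Prpf38a, needed for activation of the assembled spliceosome, had 10.5 and 10.2 RPKM in WT and 7.87 and 7.01 RPKM in KO. It fell by 0.47 log2 units (SE 0.12, adjusted p = 0.0196), but was no longer called when WT replicate 1 (0.086) or KO replicate 2 (0.0593) was left out. Its paralogue Prpf38b, which was more abundant, had 56.4 and 55.0 RPKM in WT and 56.1 and 59.7 RPKM in KO, with overlapping groups (0.06, SE 0.07, adjusted p = 0.685). The 7 genes not called, which include the U4/U6 subunits Prpf3, Prpf4 and Prpf31 and the bridging protein gene Prpf6, lay between -0.26 and 0.27.

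The largest decrease among called members was in Prpf18 (chromosome 2, 4622058 to 4652113), a factor of the second catalytic step, in which the exons are joined. Prpf18 had 20.3 and 23.2 RPKM in WT and 17.0 and 13.8 RPKM in KO, so the highest KO library lay below the lowest WT library. Its log2 fold change was -0.50 (SE 0.11, adjusted p = 0.00899). Prpf19, the ubiquitin ligase that gives the Prp19 complex its name, had 21.9 ± 0.437 and 21.4 ± 0.0869 RPKM (-0.03, SE 0.08, adjusted p = 0.85).

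In the minor spliceosome, which removes the rare U12-type introns, the 3 members had log2 fold changes above 0 and 1 was called. Of all genes tested 50.2% lay above 0 and 6.63% were called higher. The 6 other minor spliceosome genes, listed below, lay 3 above 0 and 3 below, with a median of 0.00. Snrnp48 had 8.18 and 8.74 RPKM in WT and 11.5 and 10.1 RPKM in KO (0.36, SE 0.09, adjusted p = 0.0228), but was no longer called when WT replicate 1 (0.108) or KO replicate 1 (0.0978) was left out. Snrnp35, the U11/U12 counterpart of U1-70K, was picked after its values were seen as the highest fold change of all members. It had 3.48 and 3.44 RPKM in WT and 6.76 and 5.14 RPKM in KO, from 168 to 337 counts, and did not pass the test (0.78, SE 0.31, adjusted p = 0.115). Snrnp25 had overlapping groups (0.22, SE 0.24).

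Other genes of the pathway, which the prefixes do not take, were read from a list of 80, of which 79 were in the tables and all of these were tested. In this list 5 rose and 10 fell (6.33% and 12.7%, against 6.63% and 7.89% of all genes tested), and the median log2 fold change was 0.03. Of these genes, 60 had a mean of at least 1000 counts. Among the 60, 6.67% were called higher and 16.7% lower, against 14.2% and 15.1% of all genes above that cut. The share called lower was near that of all genes above the cut, and the share called higher, from 4 calls, was below it. Median levels above the cut were 29.8 RPKM for the 60 and 17.7 RPKM for all genes, so depth was not matched. The catalytic and step factors, which include the helicases that drive each step, gave 5 decreases among 11 genes, and the Prp19 complex and related genes 4 decreases and 1 increase among 15. The U2-associated and early factors gave 3 increases among 15, the Lsm ring 1 increase among 7 and the snRNP assembly genes 1 decrease among 17. The other tri-snRNP genes (8) and minor spliceosome genes (6) gave no call by edgeR or DESeq2, with 3 and 1 at an unadjusted edgeR p under 0.05, and limma-voom called 1 tri-snRNP gene higher.

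**Figure D3:**
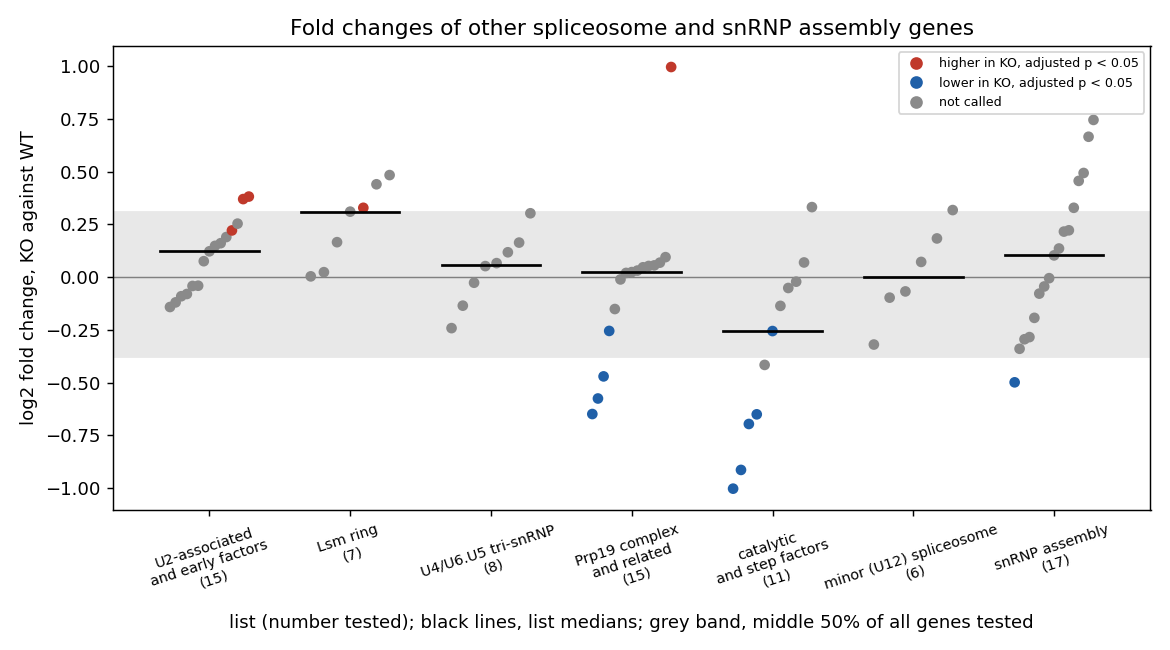
Log2 fold change of KO against WT (vertical axis) for the 79 other spliceosome and snRNP assembly genes by list (horizontal axis, number tested in brackets), coloured by the edgeR call. Black lines are list medians and the grey band spans the middle 50% of all genes tested. Of the 10 genes called lower, 9 lie in the lists of catalytic and step factors and of the Prp19 complex.

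The strongest of these decreases were larger than any among the called members, where the lowest value was -0.50. Cwc25, a step 1 factor placed beside the branch site, had 27.2 and 25.3 RPKM in WT and 12.6 and 13.5 RPKM in KO (log2 fold change -1.003 with SE 0.09, adjusted p = 2.74e-05). Dhx8, the helicase that releases the spliced mRNA, had 46.8 and 46.3 RPKM in WT and 25.1 and 24.2 RPKM in KO (-0.91, SE 0.08, adjusted p = 1.50e-05). Both stood in KO near the middle between 0 and their WT level, with little spread between replicates.

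Dhx38, the helicase that acts between the catalytic steps, had 82.9 and 78.9 RPKM in WT and 49.8 and 49.95 RPKM in KO (-0.70, SE 0.07). Cdc40, a second-step factor like Prpf18, had 13.2 and 13.1 RPKM in WT and 8.40 and 8.31 RPKM in KO (-0.65, SE 0.09). Crnkl1, of the Prp19-related complex, had 19.5 and 18.3 RPKM in WT and 12.3 and 11.7 RPKM in KO (-0.65, SE 0.10). Sart3, which helps to rejoin U4 with U6 after splicing, had 37.9 and 38.8 RPKM in WT and 27.0 and 27.1 RPKM in KO (-0.50, SE 0.08). In each of these 4 genes the groups were apart by far more than their spread. Like Cwc25 and Dhx8, they were named for a small adjusted p, so such a gap follows in part from the choice. Over the 15 alternatives the log2 fold changes ran from -0.73 to -0.65 for Dhx38 and -0.66 to -0.60 for Cdc40. They ran from -0.69 to -0.59 for Crnkl1 and -0.51 to -0.47 for Sart3.

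Plrg1 (-0.47), Srrm2 (-0.26), Isy1 (-0.58) and Syf2 (-0.26) also fell, and they were named after their values were seen. The calls of Srrm2 (adjusted p = 0.188 with WT replicate 2 left out, 0.0898 with KO replicate 1 left out, and with the length correction, 0.0569), Isy1 (without WT replicate 1, 0.206, or KO replicate 1, 0.0656) and Syf2 (without any 1 library, 0.0675 to 0.176) were less firm. The Syf2 call was also lost with upper-quartile factors (0.0514) and the replicate block (0.0655).

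The increases were fewer. Ppil1, a peptidyl-prolyl isomerase of the activated spliceosome, had 6.85 and 8.62 RPKM in WT and 16.4 and 14.4 RPKM in KO (0.995, SE 0.18, adjusted p = 0.00255). It was the single gene called higher in the Prp19-related list, in which 4 of 15 were called lower. Rbm25, a U1-associated regulator, had 15.4 and 16.3 RPKM in WT and 21.6 and 19.3 RPKM in KO (0.37, SE 0.08, adjusted p = 0.00695). Luc7l3 (0.38), Lsm4 (0.33) and Ddx39b (0.22) rose as well and were named after their values were seen. Their calls were lost without WT replicate 2 (adjusted p = 0.0769, 0.0632 and 0.137), for Lsm4 and Ddx39b without WT replicate 1 (0.101 and 0.253), for Lsm4 without KO replicate 1 (0.0768) and with the length correction (0.0516), and for Ddx39b with the replicate block (0.0778). The list had 3 increases when WT replicate 2 was left out and 8 when KO replicate 2 was.

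Some features of annotation, which the prefixes did not use, were more frequent among the members than among all tested protein-coding genes. Those genes were not matched to the members for level, with a median of 5.85 RPKM against 26.0 RPKM. In GENCODE M21, 25 of the 62 tested members (40.3%) have an annotated transcript of the nonsense-mediated decay class, against 28.4% of 12640 tested protein-coding genes. A retained-intron transcript is annotated for 45 members (72.6%), against 58.0%. The median number of annotated transcripts was 6 for the members and 5 for these genes, so the members are annotated slightly more richly. Gene counts sum over such transcripts, so splicing of the members themselves was not analysed here. At least 10% of the 50-base stretches of 17 of the 64 members occur, on either strand, in other annotated genes. Of the 64, 9 share at least 10% of their exon bases with another gene. Among the called members these are Hnrnpf, Snrpa and Hnrnpm, whose version in GENCODE M21 differs from the deposited one.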

How the data were processed

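The authors deposited raw gene counts for each of 4 libraries and an RPKM table with gene lengths. Among tools and builds, per the submitters' processing notes, were STAR 2.6.0a, HTSeq 0.6.1, cutadapt 1.17, DESeq2 1.24.0, FastQC 0.11.5 and GRCm38 (mm10). No source used here gives the strand setting or the annotation release, and overlapping genes may share reads. The deposited RPKM values equal counts per gene length and library total within a relative tolerance of 1e-06.

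Counts were tested with edgeR 4.0.16 (quasi-likelihood, robust, TMM factors, filterByExpr, genotype only) in R 4.3.3, with p-values two-sided and adjusted over all genes tested, after the code was tested on simulated data. Alternatives were other scaling factors and filters, DESeq2 1.42.0, limma-voom and limma 3.58.1 on log2 of the deposited RPKM plus 0.5 or 0.1 (mean RPKM of at least 1), a replicate block, a length correction, and leaving out each library. CPM values are counts over the library total.

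The members, roles, lists and tests were chosen with earlier results of these data known. Named genes were Srsf1, all called members, the 2 most abundant members per prefix, listed paralogue pairs (1 pair is not reported here) and the 8 called genes of the other list with the smallest adjusted p. All 64 members matched GENCODE M21 (58 with the same identifier version), which gave coordinates and overlaps.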

Additional observations from a re-analysis of the deposited data

How the results depend on the processing

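The 13 called members kept their direction under the 15 alternatives run, and the call of Srsf1 was kept in each (log2 fold change -1.45 to -1.31). The median of the members lay between 0.08 (without WT replicate 2) and 0.14. Leaving out each library in turn gave 5 to 10 members higher, 2 to 6 lower, 3 to 8 other spliceosome genes higher and 8 to 10 lower; the lone library of a group is then assumed to vary like the other group. Members called lower numbered 9 with a mean of at least 1 CPM, 8 by DESeq2, 9 by limma-voom and 3 with the length correction, against 5. By limma on log2 RPKM plus 0.5 or 0.1, 2 members were higher and 0 lower (9 lower at an unadjusted p under 0.05), and 2 other spliceosome genes were higher and 6 lower. Other spliceosome genes called higher were 9 with no filter on low counts, 8 with a mean of at least 1 CPM and 8 by limma-voom, against 5. The causes of these shifts were not tested. Signs turned in genes that were not called: Snrpd1 (0.0141 without WT replicate 1, down to -0.1571 without WT replicate 2) and Hnrnpa0 (-0.0231 without WT replicate 2 and -0.0274 without KO replicate 2, up to 0.1917 without WT replicate 1).

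With the replicate number as a block, 9 members were higher and 6 lower, and 6 other spliceosome genes were higher and 9 lower. The numbers gave no sign of pairing: deviations of WT replicate 1 and KO replicate 1 from their group means correlated at -0.04 across 16588 genes, and the labels state no shared animal or batch.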
